A study of Mus musculus with 27 samples.

Results

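De novo lipogenesis, the making of fatty acids from carbohydrate carbon in the liver, was described by 10 genes, chosen by their symbols: *Fasn*, *Acaca*, *Acacb*, *Acly*, *Scd1*, *Elovl6*, *Me1*, *Srebf1*, *Thrsp* and *Pnpla3*. Each of the 10 was found on a single row of a count table with 23191 gene symbols. The choice was by symbol and used no threshold on measured values, but it was made with earlier results of these data known. Liver RNA-Seq was available for 27 male C57BL/6J mice, which were whole-body HGFAC-KO mice or their littermate controls. The *Hgfac* gene encodes a serine protease of blood plasma, made mainly by hepatocytes, whose best-known substrate is the precursor of hepatocyte growth factor. The KO allele lacks the stretch from the middle of exon 1 through exon 2 in every tissue. Mice were 8 weeks old when the diets began and were then fed chow or a diet high in fat and sucrose (HF/HS) for 4 weeks. The groups were control chow (7 mice), control HF/HS (7 mice), KO chow (6 mice) and KO HF/HS (7 mice), with 1 library per mouse. The feeding state at liver collection is not stated for the RNA-Seq. Hepatic triglycerides of mice in the same 4 kinds of group were measured after an overnight fast and refeeding, but whether those were the same livers is not stated in the sources used here.

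In this pathway, ATP citrate lyase (*Acly*) releases acetyl-CoA from citrate in the cytosol. The acetyl-CoA carboxylases turn acetyl-CoA into malonyl-CoA, in the cytosol for *Acaca* and at the outer mitochondrial membrane for *Acacb*, where malonyl-CoA also restrains fatty acid oxidation. Fatty acid synthase (*Fasn*) builds palmitate with NADPH that malic enzyme (*Me1*) helps to supply, *Elovl6* lengthens it and stearoyl-CoA desaturase (*Scd1*) introduces the double bond of monounsaturated fatty acids. *Srebf1* encodes SREBP1, a membrane-bound transcription factor that insulin activates and that is cut free before it enters the nucleus, and ChREBP (*Mlxipl*) is the carbohydrate-sensing factor that acts on many of the same genes. *Thrsp* (Spot 14) is a small protein of lipogenic tissues that is induced by thyroid hormone and carbohydrate, and *Pnpla3* encodes a lipid droplet protein whose mRNA falls with fasting. The abundance of *Srebf1* mRNA does not measure the cleaved protein, and the counts do not separate its 2 main isoforms.

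On GRCm38, *Fasn* lies on chromosome 11 from 120805846 to 120824547, *Acly* on chromosome 11 from 100476353 to 100528000 and *Srebf1* on chromosome 11 from 60199089 to 60222581, all on the minus strand. *Acaca* lies on chromosome 11 from 84129672 to 84401651 and *Acacb* on chromosome 5 from 114146535 to 114250761, both on the plus strand. *Scd1* lies on chromosome 19 from 44394455 to 44407879, *Me1* on chromosome 9 from 86581371 to 86695953 and *Thrsp* on chromosome 7 from 97412938 to 97417730, on the minus strand. *Elovl6* lies on chromosome 3 from 129532355 to 129638495 and *Pnpla3* on chromosome 15 from 84167837 to 84187236, on the plus strand. Exons of *Srebf1* overlap *Rai1* and exons of *Me1* overlap *A330041J22Rik*, each on the opposite strand. The libraries were stranded, but the strand setting of the counting is not given in the sources used here, so reads could be shared between these partners. *Scd1* has close paralogs, between which the counting could split reads.

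Promoter sequence is shown for *Fasn* and *Acly*, the pair whose levels moved together most closely from mouse to mouse, for *Pnpla3*, which moved instead with *Scd1*, and for a start of *Srebf1*. Each is the 100 bases before a RefSeq transcription start of GRCm38.p6, 5′ to 3′ on the gene's strand. Capitals mark CCAAT (the box of the factor NF-Y) and GGGCGG (the Sp1 box) on either strand, so that ATTGG and CCGCCC are the same boxes read from the other strand. Both factors are known to act beside SREBP1 at lipogenic promoters.
Fasn (chr11:120824548-120824647, minus strand): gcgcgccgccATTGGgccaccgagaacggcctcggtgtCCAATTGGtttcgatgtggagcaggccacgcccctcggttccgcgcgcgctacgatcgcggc
Acly (chr11:100528001-100528100, minus strand): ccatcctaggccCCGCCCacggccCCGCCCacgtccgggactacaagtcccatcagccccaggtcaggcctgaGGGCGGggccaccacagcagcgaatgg
Pnpla3 (chr15:84167716-84167815, plus strand): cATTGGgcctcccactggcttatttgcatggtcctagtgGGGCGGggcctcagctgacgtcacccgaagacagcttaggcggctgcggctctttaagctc
Srebf1 (chr11:60220628-60220727, minus strand, between exons inside the gene): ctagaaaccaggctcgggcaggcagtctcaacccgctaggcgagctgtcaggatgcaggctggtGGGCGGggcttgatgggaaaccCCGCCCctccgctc
In *Fasn* the 3 CCAAT boxes begin at -90, -62 and -59 from the start, and the last 2 overlap as CCAATTGG. *Acly* has 4 GGGCGG boxes, of which the 3 shown begin at -88, -76 and -27 and the fourth at -117. The RefSeq table held 12 windows of 250 bases before to 50 after a start for 9 of the 10 genes, with no entry for *Scd1*. None of the 12 held the E-box CACGTG or the sterol response element core TCACNCCAC on either strand, which occur in 7.15% and 1.24% of all 32851 windows. Only these letters (N for any base) were searched, so variant forms of either element were not counted. Windows at other starts of *Srebf1* are not printed here. CCAAT occurs in 37.4% of them and GGGCGG in 35.7%, so a match to either is common. The windows of *Acaca* and *Elovl6* held none of the 4 motifs, but the *Acaca* window lies at a start inside the gene and not at its first start. The *Acacb* window (start at 114165518) and a window of *Me1* (start at 86687277) lie well inside their genes too. These matches describe letters in a window and not binding.

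Libraries held between 36056177 and 57298657 counts, and the 10 genes together took between 0.241% and 1.23% of the counts on named genes. *Hgfac* ranged from 183 to 296 CPM (counts scaled to library size) in control livers, whereas KO livers held 65.4 to 101 CPM, without overlap on either diet. Hepatocyte markers (8 of 8 measured) summed to between 74800 and 113345 CPM, with medians of 79467 CPM in control chow, 80395 in control HF/HS, 91953 in KO chow and 101938 in KO HF/HS. Such a sum is weighted to the most abundant markers. In KO against control, 5 of the 8 had a positive fold change on each diet and 0 passed with edgeR. DESeq2 called *Alb* and *Apoa1* higher on chow and *Alb* on HF/HS. Adipose tissue also makes fatty acids. Of 8 adipocyte markers, 6 averaged under 1 CPM in every group, *Lep* was at 0 in all 27 mice, *Adipoq* reached at most 0.320 CPM and *Plin1* at most 0.291 CPM. The other 2, *Adrb3* (2.92 to 10.1 CPM) and the hormone-sensitive lipase *Lipe* (11.6 to 27.4 CPM), were measured in every mouse, and *Lipe*, fell on HF/HS in controls (log2 fold change -0.55, adjusted p = 5.57e-04 from edgeR). Its part in the differences of the 10 genes was not tested.

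*Scd1* was by far the most abundant of the 10 transcripts. Divided by exon length, its mean in control chow was 638 ± 162 CPM per kb (SD, n = 7), and its lowest mouse lay above the highest mouse of the next gene in every group. *Fasn* followed at 43.8 ± 7.54 CPM per kb, *Me1* ranged from 30.7 to 48.6 and *Acly* had 36.2 ± 5.42 CPM per kb, and the ranges of neighbours among these 3 genes overlapped. *Srebf1* (20.2 ± 3.76), *Elovl6* (13.8 ± 1.71), *Thrsp* (11.7 ± 1.57) and *Acacb* (8.21 ± 0.785) formed a middle tier with overlapping neighbours. *Acaca* stood below them at 3.39 ± 0.307 and *Pnpla3* lowest at 0.274 ± 0.0989 CPM per kb, each without overlap with the gene above it in control chow, although *Acacb* and *Acaca* overlapped in the other 3 groups. In all 4 groups *Scd1* and *Fasn* came first, and *Acacb*, *Acaca* and *Pnpla3* last, while *Acly* preceded *Me1* in KO mice and *Thrsp* preceded *Elovl6* in control HF/HS. As a share of the summed CPM of the 10 genes, *Scd1* ranged from 48.8% to 91.8% over the mice. Without it the sum was almost level across groups, at 1182 ± 107 CPM in control chow, 1167 ± 274 in control HF/HS, 1223 ± 440 in KO chow (n = 6) and 1163 ± 158 in KO HF/HS (SD, n = 7 in the other groups). *Pnpla3* rested on 2 to 82 counts per library, so its values carry a large counting error, whereas each of the other 9 genes had at least 656 counts in every library.

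**Figure D1:**
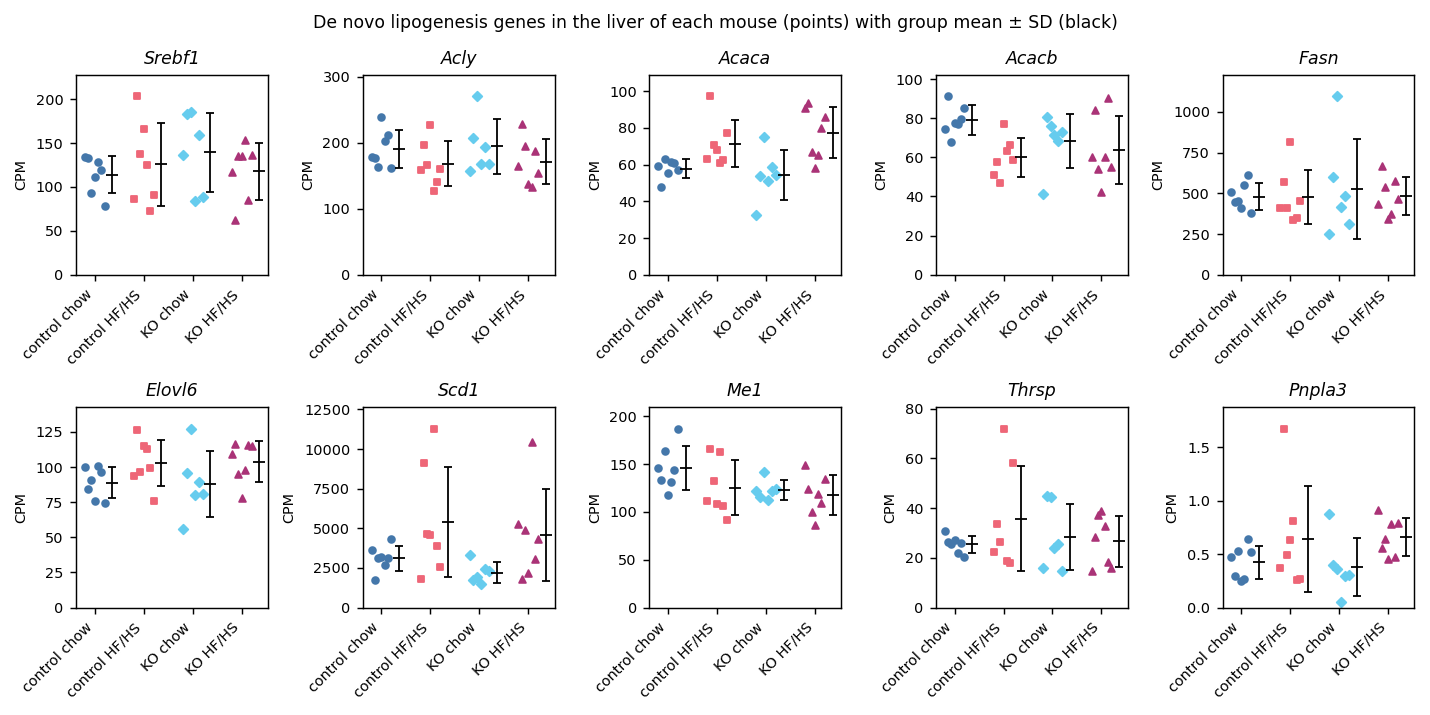
Level of each of the 10 genes (CPM, linear axis from 0) in every mouse, by group, with the group mean and SD in black. Scd1 spread widely on HF/HS, up to 11277 CPM, Acacb was lower in control HF/HS than in control chow, and the groups of every gene overlapped.

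The first question was whether HF/HS diet changed these genes in control mice. *Acacb* fell and none of the other 9 genes passed the threshold of an adjusted p of 0.05, so that 1 of 10 was called, beside 10.5% of the 13525 genes tested (4.93% higher and 5.6% lower on HF/HS), a share close to that of all genes. In bulk liver, fewer cells of a type and less RNA per cell cannot be told apart. *Acacb* ranged from 67.9 to 91.3 CPM (median 77.7) in control chow and from 46.6 to 76.9 CPM (median 58.5) in control HF/HS. All but 1 of the 7 HF/HS mice lay below every chow mouse. Its log2 fold change was -0.40 (SE 0.09, adjusted p = 0.0112 by the quasi-likelihood F-test of edgeR after Benjamini-Hochberg correction), and a two-sided exact permutation test gave p = 0.00233. It stayed called when any single mouse was dropped (adjusted p of at most 0.0295), but not in a fit of all 27 mice (0.0786).

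The other carboxylase moved the opposite way in size, without passing the threshold. *Acaca* ranged from 47.6 to 63.1 CPM (median 59.3) in control chow and from 61.0 to 97.3 CPM (median 68.1) in control HF/HS, with 4 of 7 HF/HS mice above all chow mice. The log2 fold change was 0.30 (SE 0.10, 95% interval 0.10 to 0.51, adjusted p = 0.0578 from edgeR), and the exact permutation p was 0.00583. It passed with DESeq2 (adjusted p = 0.0278), and also when control HF/HS replicate 5 (0.0463) or replicate 6 was dropped.
*Scd1*, the desaturase, had a larger mean difference and a larger spread. It ranged from 1738 to 4307 CPM (median 3141) in control chow and from 1785 to 11277 CPM (median 4606) in control HF/HS, where replicates 5 and 2 were highest at 11277 and 9102 CPM. The log2 fold change was 0.79 (SE 0.36, adjusted p = 0.189 from edgeR, exact permutation p = 0.161), and without control HF/HS replicate 5 it was 0.51.
*Fasn*, the central synthase, was almost level, from 380 to 613 CPM (median 453) on chow and from 336 to 815 CPM (median 409) on HF/HS. Its log2 fold change was -0.01, with a 95% interval of -0.39 to 0.37, which leaves room for a change of either sign. *Acly* had a log2 fold change of -0.18 (adjusted p = 0.376), *Me1* of -0.22 (0.332), *Elovl6* of 0.21 (0.218), *Thrsp* of 0.48 (0.344), *Pnpla3* of 0.62 (0.348) and *Srebf1* of 0.14 (0.732), all from edgeR. Some of these rested on single mice, with -0.01 for *Srebf1* when control HF/HS replicate 2 was dropped, 0.21 for *Thrsp* when replicate 4 was dropped and 0.15 for *Pnpla3* when replicate 2 was dropped. *Srebf1* itself ranged from 78.5 to 134 CPM on chow and from 72.3 to 204 CPM on HF/HS, so that its HF/HS mice reached both below and above the chow mice. Over the 10 genes the median log2 fold change was 0.18, beside 0.00 over all genes tested. None of the 10 had groups without overlap, as 3.53% of all genes tested had.

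In KO mice, HF/HS diet left 0 of 10 genes past the threshold with edgeR, beside 5.89% of 13613 genes tested (3.17% higher and 2.73% lower on HF/HS). DESeq2 called 1, *Acaca*. An unadjusted p under 0.05 was found for *Acaca* and *Scd1*, 2 of 10, beside 3043 of the 13613 genes, which is a like share. *Acaca* ranged from 32.5 to 75.0 CPM (median 54.1) in KO chow and from 58.0 to 93.6 CPM (median 79.8) in KO HF/HS. All but 1 of the KO chow mice were at or under 58.5 CPM, and 4 of 7 HF/HS mice lay above the highest of them. The log2 fold change was 0.51 (SE 0.16, 95% interval 0.17 to 0.85, adjusted p = 0.0748 from edgeR), and the exact permutation p was 0.0122. It passed with DESeq2 (adjusted p = 0.0224), in the fit of all 27 mice, and when KO chow replicate 3 was dropped (0.0336).
*Scd1* ranged from 1457 to 3338 CPM (median 2118) in KO chow and from 1781 to 10415 CPM (median 4311) in KO HF/HS, with replicate 5 highest and the next mouse at 5277 CPM. The log2 fold change was 1.05 (SE 0.37, adjusted p = 0.113 from edgeR, exact permutation p = 0.0425), and without that mouse it was 0.70. *Pnpla3* had a mean of 0.382 ± 0.272 CPM in KO chow (SD, n = 6) and 0.659 ± 0.176 in KO HF/HS (SD, n = 7). Its log2 fold change was 0.78 (SE 0.37, adjusted p = 0.229 from edgeR), and it passed without KO chow replicate 1 (1.19, adjusted p = 0.0408).
*Acacb*, which was called in controls, had a log2 fold change of -0.10 here (95% interval -0.48 to 0.28), which was -0.21 when KO chow replicate 1 was dropped and -0.02 when KO HF/HS replicate 4 was dropped. It ranged from 41.3 to 80.7 CPM in KO chow and from 42.2 to 90.5 CPM in KO HF/HS, with KO chow replicate 1 lowest and the other 5 chow mice at 68.2 CPM or more. *Fasn* had a log2 fold change of -0.12 (95% interval -0.76 to 0.51) and turned positive without KO chow replicate 3 (0.22), which held 1097 CPM while the other KO chow mice ranged from 251 to 602. *Acly* (-0.18), *Me1* (-0.07), *Srebf1* (-0.24), *Thrsp* (-0.09) and *Elovl6* (0.24) had adjusted p between 0.379 and 0.902, and *Acly* was at -0.07 when KO chow replicate 3 was dropped. Single dropped mice moved *Srebf1* between -0.36 and -0.14, *Elovl6* between 0.13 and 0.37 and *Me1* between -0.14 and -0.008. The median over the 10 genes was -0.08, beside 0.00 over all genes. In no gene were the groups without overlap, as they were for 3.01% of all genes tested. Beside these values, 5 of 10 markers of Kupffer cells and leukocytes rose on HF/HS in KO mice, and their summed level ranged from 129 to 192 CPM in KO chow and from 170 to 295 CPM in KO HF/HS. In controls 0 of these 10 passed with edgeR (2 at an unadjusted p under 0.05), with sums of 136 to 261 and 173 to 348 CPM. Their part in the differences of the 10 genes was not tested.

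Because *Acaca*, *Scd1*, *Elovl6* and *Pnpla3* had positive fold changes on HF/HS in both genotypes, the diet difference averaged over genotypes was tested in a fit of all 27 mice, a comparison chosen after those values had been seen. *Acaca* and *Scd1* rose, so that 2 of 10 were called, beside 23.5% of 13932 genes tested (12.1% higher and 11.4% lower). *Acaca* rose by 0.41 on the log2 scale (SE 0.10, 95% interval 0.21 to 0.61, adjusted p = 0.00313), and *Scd1* by 0.92 (SE 0.27, 95% interval 0.37 to 1.48, adjusted p = 0.0151), both from edgeR. DESeq2 called *Acaca* and *Scd1* as well, and both stayed past the threshold whichever mouse was dropped, with an adjusted p of at most 0.0064 for *Acaca* and 0.0315 for *Scd1*. *Pnpla3* (0.70, adjusted p = 0.0704), *Acacb* (-0.25, 0.0839) and *Elovl6* (0.22, 0.0859) did not pass. Each of these 3 passed with some single mice left out, *Acacb* without control HF/HS replicate 4, KO chow replicate 1 or KO HF/HS replicate 2 or 6, *Elovl6* without control HF/HS replicate 7, KO chow replicate 3 or KO HF/HS replicate 4, and *Pnpla3* without control HF/HS replicate 6 or 7 or KO chow replicate 1. *Fasn* (-0.07, 95% interval -0.43 to 0.30), *Acly* (-0.18, -0.38 to 0.02), *Me1* (-0.15, -0.33 to 0.04), *Srebf1* (-0.05, -0.39 to 0.29) and *Thrsp* (0.19, -0.28 to 0.67) had intervals that held 0. With 1 mouse dropped, the value of *Fasn* ran from -0.16 to 0.11 and that of *Acly* from -0.22 (control HF/HS replicate 4 dropped) to -0.12 (KO chow replicate 3 dropped). A share of 2 in 10 lies near that of all genes. In the same fit 5 of 7 markers of sinusoidal endothelium, 5 of 10 of Kupffer cells and leukocytes and 3 of 8 of stellate cells rose, and 1 stellate marker fell. Summed endothelial markers ranged from 161 to 267 CPM in control chow, 194 to 312 in control HF/HS, 137 to 221 in KO chow and 184 to 271 in KO HF/HS, and summed stellate markers from 192 to 278, 227 to 296, 142 to 271 and 203 to 338 CPM in the same order, with no marker of these 3 lists at 0 in all mice. Of 4 red blood cell markers tested in that fit, 2 fell and 0 rose past the threshold, with a median log2 fold change of -0.61. The part of these markers of other cells in the rise of *Acaca* and *Scd1* was not tested.

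**Figure D2:**
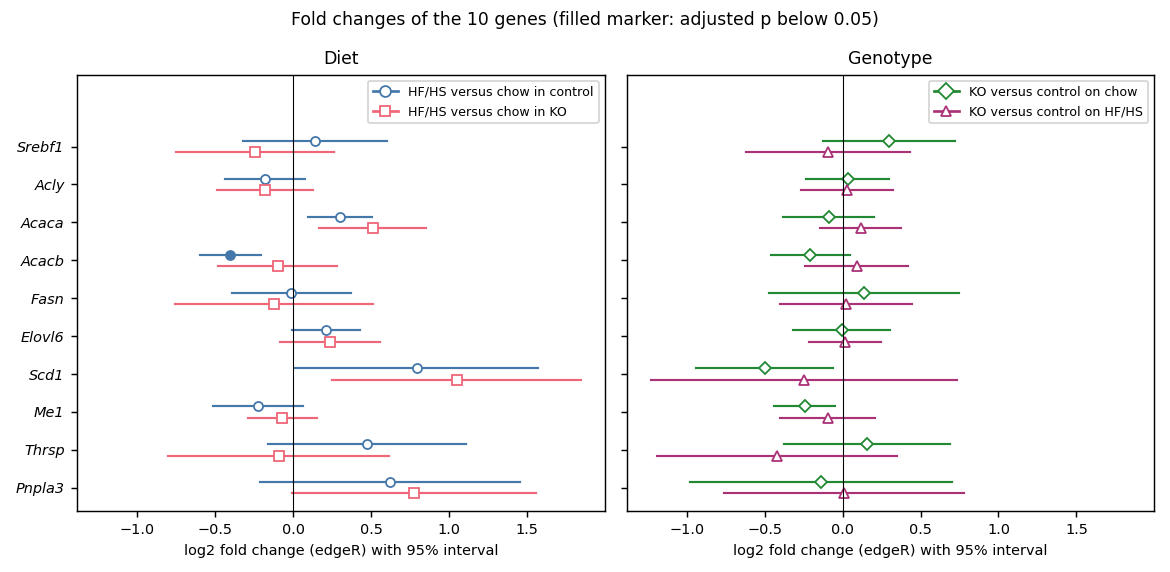
Log2 fold change of each gene with its 95% interval from edgeR, for diet within each genotype (left) and genotype within each diet (right). Only Acacb in control mice has a filled marker (adjusted p below 0.05), and Acaca, Scd1, Elovl6 and Pnpla3 lie to the right of 0 for diet in both genotypes.

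The genotype comparisons asked whether loss of HGFAC changed lipogenic transcripts on the same diet. On chow, 0 of 10 genes passed with edgeR, beside 0.00737% of 13571 genes tested. DESeq2 called 0 as well, with no adjusted p for 3 genes, and before adjustment edgeR gave p under 0.05 for 2, beside 812 of the 13571 genes. These were *Me1*, which spanned 118 to 187 CPM (median 143) among controls and 112 to 142 CPM (median 122) among KO mice, and *Scd1*. *Me1* had a log2 fold change of -0.24 (95% interval -0.44 to -0.05, unadjusted p = 0.0178 from edgeR, adjusted p = 0.801). *Scd1* had one of -0.50 (95% interval -0.94 to -0.06, unadjusted p = 0.0284 from edgeR, adjusted p = 0.801), and its groups overlapped over most of their range, with 2 of 6 KO mice below all controls. *Srebf1* had a log2 fold change of 0.30 (adjusted p = 0.823), with a mean of 114 ± 21.2 CPM (SD, n = 7) in control chow against 139 ± 44.8 CPM (SD, n = 6) in KO chow. *Fasn* (0.14, 95% interval -0.47 to 0.75) had the largest SD of any group in KO chow, 306 CPM around a mean of 527, and its fold change was -0.21 once the highest mouse of that group, replicate 3, was dropped.
Under HF/HS feeding, 0 of 10 passed with edgeR, beside 0.0148% of 13544 genes tested, 0 with DESeq2, and 0 had an unadjusted p under 0.05 (1306 of the 13544 genes had). The intervals of all 10 genes held 0, which leaves room for a difference of either sign. They were narrowest for *Elovl6* (0.02, 95% interval -0.21 to 0.24), *Acly* (0.03, -0.27 to 0.32), *Acaca* (0.12, -0.15 to 0.38) and *Me1* (-0.09, -0.40 to 0.21). Leaving out 1 mouse moved *Me1* between -0.16 and -0.01 and *Acaca* between 0.06 and 0.21. The intervals were wide for *Scd1* (-0.25, -1.23 to 0.73), *Thrsp* (-0.42, -1.19 to 0.35) and *Pnpla3* (0.01, -0.76 to 0.78). When control HF/HS replicate 4 was dropped, *Thrsp* was at -0.15. *Acacb* (0.09), *Fasn* (0.02) and *Srebf1* (-0.09) lay between, with unadjusted p from 0.573 to 0.914 (edgeR). In none of the 10 genes were the genotypes without overlap on either diet, as they were for 0.125% of all genes on chow and 0.0812% on HF/HS.
Whether the diet effect differed between genotypes was asked with an interaction term in the fit of the 27 mice. For *Acacb* it was 0.30 (SE 0.21, unadjusted p = 0.163, adjusted p = 0.984 from edgeR), so that its fall in controls was not shown to differ from KO mice. *Thrsp* (-0.57, 95% interval -1.52 to 0.37) and *Srebf1* (-0.39, -1.07 to 0.30) had the next smallest p of the 10. Over fits that left out 1 mouse, the term ran from 0.19 to 0.38 for *Acacb*, from -0.71 to -0.31 for *Thrsp* and from -0.50 to -0.23 for *Srebf1*. The interaction passed for 0 of 10 genes and for 0.0% of 13932 genes tested with edgeR, and for 0 with DESeq2. At an unadjusted p under 0.05 it held 506 of the 13932 genes but 0 of the 10 (edgeR).

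Other genes of lipid and sugar metabolism were counted in 6 lists, to be read against the 10.5% of all genes called for diet in controls and the 5.89% in KO mice. Of 20 targets of SREBP2, the sterol-regulated relative of SREBP1, 11 fell on HF/HS in controls and 0 rose, with a median log2 fold change of -0.83, and 11 fell and 0 rose in KO mice (18 fell with DESeq2), with a median of -1.13. *Insig1*, which holds both SREBPs in the endoplasmic reticulum and is itself induced by them, fell from 283 ± 83.8 to 138 ± 56.4 CPM in controls (SD, n = 7 in each group, log2 fold change -1.04, adjusted p = 0.0141 from edgeR). In KO mice *Sqle*, squalene epoxidase, fell by 1.58 on the log2 scale (adjusted p = 0.0181).
Of 15 genes that process or control SREBP1, 2 rose and 3 fell in controls, led by *Tm6sf2* (-0.57, adjusted p = 0.00719), a gene of lipoprotein lipidation, *Mbtps1* (0.20, adjusted p = 0.0137), the site-1 protease that cuts SREBPs, and *Insig1*, which both lists hold. In KO mice 0 of the 15 passed with edgeR (2 with DESeq2, 2 at an unadjusted p under 0.05). *Insig1* was among the latter, with 300 ± 148 CPM in KO chow and 125 ± 69.9 CPM in KO HF/HS (SD, n = 6 and 7, log2 fold change -1.26, adjusted p = 0.099 from edgeR).
Of 27 other genes of fatty acid synthesis and NADPH supply, 5 rose and 6 fell in controls, with a median of -0.12. *Elovl1*, an elongase of very long chains, fell from 47.5 ± 2.77 to 34.9 ± 4.64 CPM (-0.45, adjusted p = 8.09e-04). *Tkt*, transketolase, fell from 123 ± 9.97 to 91.7 ± 10.8 CPM (-0.43, adjusted p = 0.00134), and *Hsd17b12*, a reductase of chain elongation, rose by 0.25 (adjusted p = 0.00178). In KO mice 2 of the 27 rose and 6 fell (4 and 10 with DESeq2), led by *Pgd* (-0.28, adjusted p = 0.00114), *Elovl1* (-0.35, adjusted p = 0.00606) and *G6pdx* (0.43, adjusted p = 0.0116). *Pgd* and *G6pdx* are neighbouring NADPH-producing enzymes of the pentose phosphate pathway, and they moved in opposite directions.
Of 14 ChREBP targets, 4 rose and 1 fell in controls, with a median of 0.28. *Slc2a2*, the glucose transporter GLUT2, rose from 128 ± 14.3 to 214 ± 35.0 CPM (0.74, adjusted p = 3.19e-04), and *Pklr*, liver pyruvate kinase, rose from 117 ± 13.7 to 194 ± 39.8 CPM (0.73, adjusted p = 0.00127). In KO mice 1 of the 14 rose, *Txnip* (0.39, adjusted p = 0.0347), which binds thioredoxin and restrains glucose uptake, and 0 fell. DESeq2 called 5 of the 14 higher in KO mice, among them *Slc2a2* and *Pklr*, whose edgeR log2 fold changes were 0.58 (adjusted p = 0.0748) and 0.66 (adjusted p = 0.0779).
Of 18 genes of glycerolipid synthesis and lipid droplets, 17 were tested. In controls 2 rose, among them *Lpin1*, a phosphatidate phosphatase (1.00, adjusted p = 0.0105), and 1 fell, *Pnpla2*, the triglyceride lipase ATGL (-0.36, adjusted p = 0.00257), which was also the 1 that fell in KO mice (-0.36, adjusted p = 0.0377). Of 14 genes that follow feeding and insulin, 2 rose and 1 fell in controls, *Cpt1a* (0.41, adjusted p = 7.02e-04), *Angptl4* (0.85, adjusted p = 0.0495) and *Pdk4* (-0.93, adjusted p = 0.0227), and in KO mice *Pdk4*, a brake on pyruvate oxidation that rises with fasting, fell (-0.98, adjusted p = 0.0272). These adjusted p-values are from edgeR. Between genotypes, 0 genes of these 6 lists passed on either diet with edgeR or DESeq2, with no DESeq2 adjusted p for part of the genes on chow. At an unadjusted p under 0.05 (edgeR) there were 0 to 2 genes per list on chow and 0 to 6 on HF/HS, the 6 being of the 17 glycerolipid genes. The lists share members and were chosen with earlier results known, so their counts describe these libraries.

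**Figure D3:**
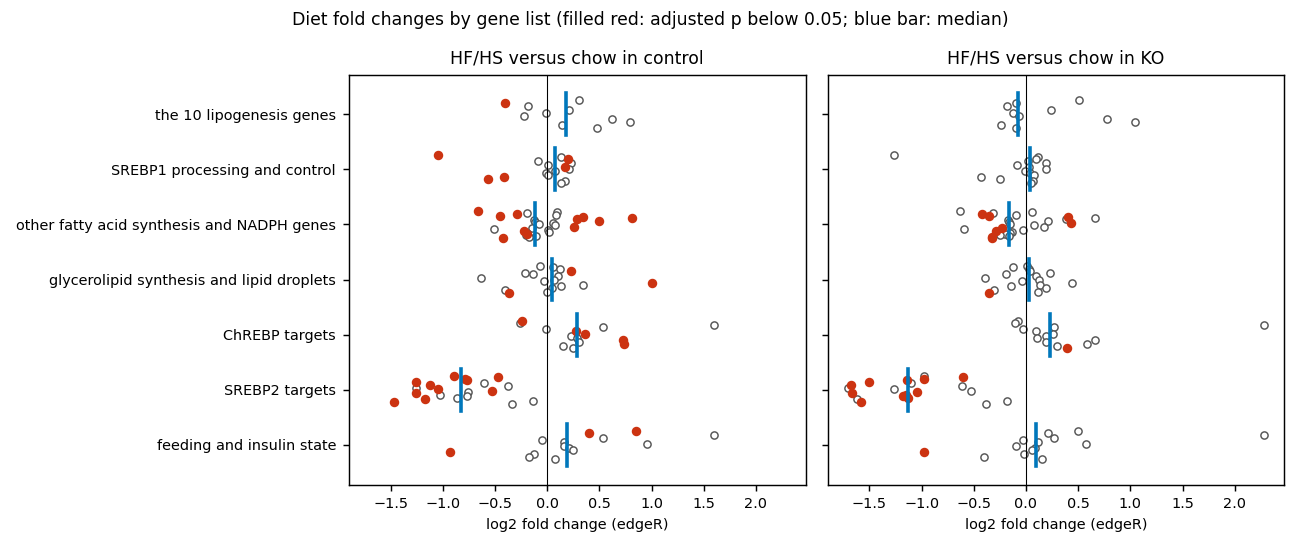
Log2 fold change on HF/HS against chow (edgeR) of each gene in 7 lists, in control mice (left) and KO mice (right). Filled red points passed an adjusted p of 0.05 and blue bars are list medians, with every SREBP2 target below 0 in both panels (11 of 20 red in each) and the 10 lipogenesis genes on both sides of 0.

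Mice of the same group differed among themselves, and the 10 genes did not vary as 1 block. Over 27 mice, deviations of log2 CPM from the group mean were compared for the 45 pairs of genes, with permutation p-values (100000 resamples over mice) that were not adjusted for the 45 pairs. The points of a pair share libraries and the scaling of those libraries. Of the 45 pairs 35 had a positive Pearson's r and 13 had r above 0.5, with a median of 0.22.
*Acly*, *Fasn*, *Elovl6*, *Acaca* and *Acacb*, the enzymes from citrate to elongated chains, had r from 0.46 to 0.85 in the 10 pairs among them over all mice, with other ranges within groups. In KO chow the 10 values of r ranged from 0.55 to 0.97 and in KO HF/HS from 0.56 to 0.97. In control HF/HS they ranged from -0.16 to 0.97, with 1 below 0, and in control chow from -0.82 (*Acaca* and *Acacb*) to 0.89 (*Fasn* and *Elovl6*), with 4 below 0, each of them a pair with *Acacb*, and 2 more near 0 (*Acly* with *Acaca* and with *Elovl6*). That the groups differ in these relations was not tested. *Acacb* was the loosest of the 5, and its r with *Acaca* (0.47, rho = 0.19, permutation p = 0.0149 and 0.335) was 0.23 without KO chow replicates 1 and 3. The closest pair was *Acly* and *Fasn* (r = 0.85, Spearman's rho = 0.83, permutation p = 1e-05 for each, the smallest that 100000 resamples can give), and r was 0.78 without the 2 mice farthest in *Acly*, KO chow replicate 3 and control HF/HS replicate 4. *Fasn* and *Elovl6* had r = 0.76 (rho = 0.73, permutation p = 1e-05 and 5e-05, r = 0.70 without the same 2 mice). *Acaca* and *Elovl6* had r = 0.74 (rho = 0.59, permutation p = 2e-05 and 0.00145), which was 0.54 without KO chow replicates 1 and 3. *Thrsp* joined *Fasn* (r = 0.60, rho = 0.55, permutation p = 9e-04 and 0.00334, r = 0.44 without KO chow replicate 3 and control HF/HS replicate 4) but not *Acaca* (r = 0.16).
Over all mice *Scd1* stood outside this group. Its r was -0.22 with *Fasn* (rho = -0.25, permutation p = 0.274 and 0.214) and -0.25 with *Acly* (rho = -0.23, permutation p = 0.204 and 0.244). It was 0.11 with *Elovl6*, -0.04 with *Acaca* and -0.16 with *Acacb*. Within groups these relations ranged from -0.80 (*Acacb* in KO chow) to 0.75 (*Elovl6* in control HF/HS), with 0.63 for *Acaca* in control chow. The mouse with the most *Fasn*, KO chow replicate 3 at 1097 CPM, held only 1922 CPM of *Scd1*, and the mouse with the most *Scd1*, control HF/HS replicate 5 at 11277 CPM, held 336 CPM of *Fasn*, the lowest of its group. *Scd1* varied instead with *Pnpla3* (r = 0.64, rho = 0.71, permutation p = 4.3e-04 and 4e-05) and *Me1* (r = 0.58, rho = 0.58, permutation p = 0.00141 and 0.00193), and these were 0.69 and 0.64 without control HF/HS replicate 1 and KO HF/HS replicate 5. Within groups r of *Scd1* ranged from 0.52 to 0.81 with *Pnpla3*, and with *Me1* from 0.25 (KO chow) to 0.85 (control HF/HS). *Me1* was not apart from the synthesis enzymes. Its r was 0.47 with *Elovl6* and 0.42 with *Acaca* (permutation p = 0.0128 and 0.0268), but -0.07 with *Acly*, 0.06 with *Fasn* and 0.08 with *Acacb*. *Me1* and *Pnpla3* had r = 0.64 (rho = 0.70, permutation p = 2.9e-04 and 1.3e-04, r = 0.52 without control HF/HS replicates 2 and 7). The lowest r of all was between *Me1* and *Thrsp* (-0.40, rho = -0.34, permutation p = 0.0376 and 0.0822, r = -0.37 without the same 2 mice).

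**Figure D4:**
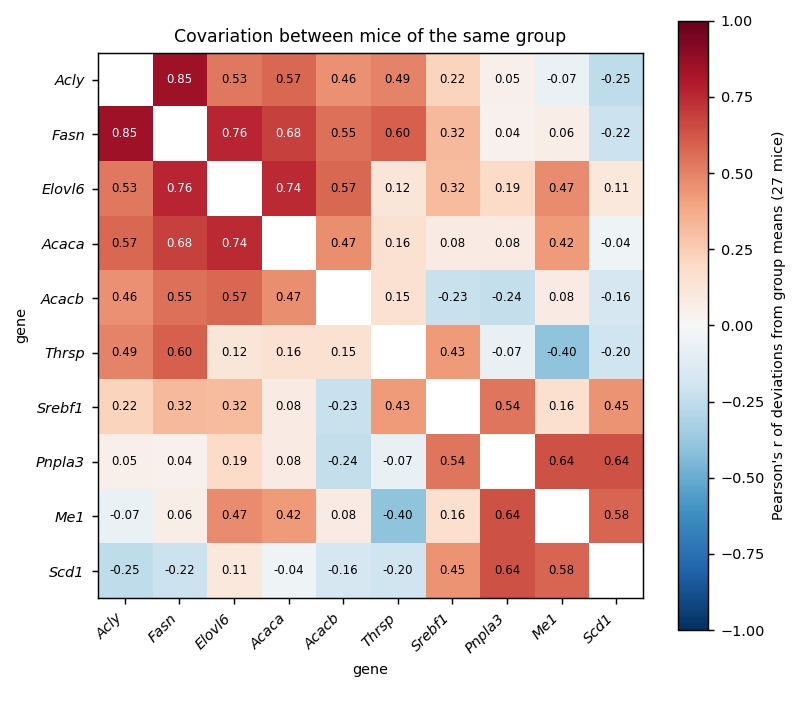
Pearson's r between each pair of the 10 genes over 27 mice, from deviations of log2 CPM from the group mean (red positive, blue negative). Acly, Fasn, Elovl6, Acaca and Acacb are red over all mice (0.46 to 0.85), although 4 of these 10 pairs were below 0 within control chow. Scd1, Me1 and Pnpla3 are red among themselves (0.58 to 0.64), with Scd1 and Fasn at -0.22, but Me1 is also red with Elovl6 (0.47).

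*Srebf1*, the factor known to act on these enzymes, followed them loosely. Over all mice its r was 0.54 with *Pnpla3* (rho = 0.42, permutation p = 0.00344 and 0.0296), 0.45 with *Scd1* (rho = 0.33, permutation p = 0.018 and 0.0915) and 0.43 with *Thrsp* (rho = 0.53, permutation p = 0.0261 and 0.00498). Without KO HF/HS replicate 2 and control HF/HS replicate 6, the mice farthest in *Srebf1*, these were 0.51, 0.37 and 0.44. Within control chow the r of *Pnpla3* (-0.41) and *Scd1* (-0.60) had the opposite sign. For *Fasn* (r = 0.32, rho = 0.41, permutation p = 0.101 and 0.0342), *Elovl6* (r = 0.32, rho = 0.45, permutation p = 0.103 and 0.0204) and *Acly* (r = 0.22, rho = 0.29, permutation p = 0.259 and 0.149) they were 0.43, 0.44 and 0.39 without these mice. The remaining r were 0.16 for *Me1*, 0.08 for *Acaca* and -0.23 for *Acacb* (permutation p from 0.261 to 0.687).
A fit of every gene on *Srebf1*, with group means removed, called 344 of 13931 genes (2.47%, 118 with a positive and 226 with a negative slope) and 0 of the other 9 lipogenesis genes with edgeR. No other tool was run for this fit, and unadjusted p was under 0.05 for 2453 of the 13931 genes and for 3 of the 9, *Pnpla3* (adjusted p = 0.106), *Scd1* (0.217) and *Thrsp* (0.23). In rank of r among the 13931 genes, *Pnpla3* stood at 316, *Scd1* at 769 and *Thrsp* at 960. With *Mid1ip1*, the partner of Spot 14 that promotes assembly of acetyl-CoA carboxylase, the slope was 0.75 per log2 unit of *Srebf1* (adjusted p = 0.00557). Of the 27 other genes of fatty acid synthesis 5 had a positive slope past the threshold, led by *Mid1ip1*, *Acsl3* (0.68, adjusted p = 0.00993) and *Idh1* (0.15, adjusted p = 0.0368), and 0 had a negative one. Among 17 glycerolipid genes 1 slope passed, a negative one for the lipid droplet gene *Cidec* (-1.04, adjusted p = 0.0103), and among 14 ChREBP targets 2 passed, *Rgn* (0.35) and *Khk* (0.25). The 20 SREBP2 targets had 3 positive slopes, among them *Insig1* (0.97, adjusted p = 0.0299) and *Sc5d* (0.30, adjusted p = 0.0392), and their median slope was 0.52 beside 0.00 over all genes. Of the 10 markers of Kupffer cells and leukocytes 0 passed with edgeR, but 8 had a negative slope at an unadjusted p under 0.05, among them *Vsig4* (-0.36), *Ptprc* (-0.41) and *Adgre1* (-0.43), with a median of -0.35. Their part in the *Srebf1* slopes was not tested. The genes whose deviations were most like those of *Srebf1* were *Inmt* (r = 0.84), *Rdm1* (0.79), *Ces1e* (0.79), *Fcf1* (0.77) and *Il1rap* (0.77), named by rank of r alone over 27 mice and so with no test.

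Within groups the relation of *Srebf1* to the synthesis enzymes was not uniform. Its r with *Fasn* was 0.61 in control chow, 0.65 in control HF/HS, 0.62 in KO chow and -0.81 in KO HF/HS, and with *Acly* it was 0.44, 0.65, 0.72 and -0.82. In KO HF/HS the exact permutation p over 7 mice was 0.024 for *Fasn* (rho = -0.61, exact p = 0.167) and 0.0185 for *Acly* (rho = -0.71, exact p = 0.0881), unadjusted over the 36 relations of 9 genes in 4 groups. The smallest of the 36 exact p was that of *Pnpla3* in control HF/HS (r = 0.89, rho = 0.86, exact p = 0.00675 and 0.0238), where r was 0.74 without the 2 farthest mice. *Acacb* had r = -0.81 in KO HF/HS (exact p = 0.0359), which was -0.03 without those 2 mice, and *Me1* had r = -0.75 in control chow (exact p = 0.0514) and 0.63 without them. KO HF/HS replicate 2 had the lowest *Srebf1* of the 27 mice, 62.6 CPM, and the highest *Fasn* of its group, 666 CPM. Without the 2 mice farthest in *Srebf1* there, r was -0.28 for *Fasn* and -0.48 for *Acly*, so the negative relation rests largely on those mice. The same removal in control chow took *Fasn* from 0.61 to 0.18 and *Acly* from 0.44 to -0.97. In control HF/HS it left 0.53 for *Fasn* and 0.49 for *Acly*, and in KO chow 0.93 and 0.90. That the groups differ in this relation was not tested.

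**Figure D5:**
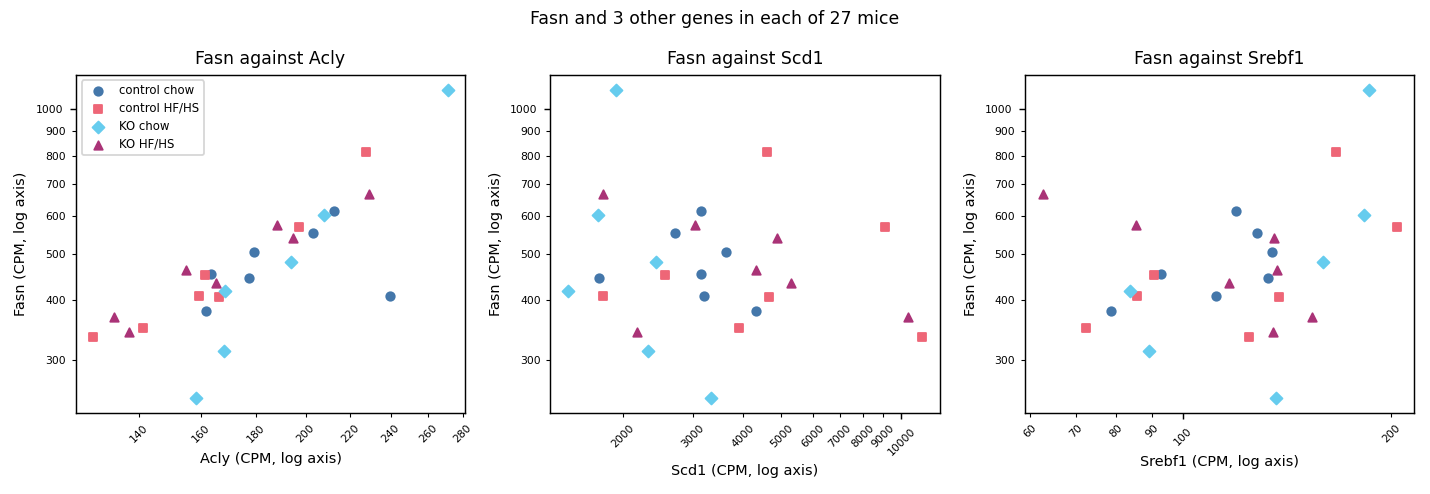
Fasn against Acly, Scd1 and Srebf1 in each of 27 mice (CPM, log axes), with groups by colour and marker. Fasn rises with Acly (r = 0.85 for deviations from group means) and shows no such relation with Scd1 (r = -0.22). Among KO HF/HS mice (triangles) r with Srebf1 was -0.81, but -0.28 without the 2 mice farthest in Srebf1. In the other groups it was positive, and in control chow the same removal took it from 0.61 to 0.18. A difference between groups was not tested.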

How the data were processed

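Liver mRNA of 27 mice was sequenced from stranded libraries. The authors aligned reads with HISAT2 to GRCm38 (mm10) and assigned them to genes with featureCounts 1.6.3, and the deposited values are raw counts per gene, without normalization. Rows that name no gene (3886 of 27179) held 4.13% to 12.1% of a library and were left out. Groups came from the labels. The closest libraries of a group differed by more than sampling noise (chi-square per gene 17.7).

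The test of each gene was edgeR 4.0.16 under R 4.3.3 (library scaling by TMM, filterByExpr with a minimum count of 10 and minimum total of 15, robust quasi-likelihood F-test, Benjamini-Hochberg adjustment over all genes tested, threshold 0.05). All 10 genes passed the filter in each comparison. Each comparison used its own 2 groups, and the interaction, the diet effect over genotypes and the *Srebf1* slopes used all mice. Log2 CPM used a prior count of 2. Permutation tests were two-sided. Each library came from a separate mouse. Simulated counts with known fold changes served to check the fits of diet in controls, of the interaction and of the *Srebf1* slopes. The other comparisons were not simulated. Alternatives were DESeq2 1.42.0, upper-quartile normalization, 2 other count filters, a fit of all 27 mice, a block by replicate number and leaving out each mouse. Exon lengths and coordinates came from GENCODE M21 and promoters from RefSeq. The rule for named genes was all 10 genes, the 3 genes of each other list with the smallest p, and the 5 most like *Srebf1*. The 10 genes and the lists were chosen with earlier results of these data known. Some list genes that this rule selects are not reported here.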

Additional observations from a re-analysis of the deposited data

Results flagged for a closer look

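In 3 of the 40 sets of mice (10 genes in 4 groups), 1 mouse lay far from the rest of its group by Dixon's ratio of gap to range, and chance marks about 1 in 20 sets (2 of 40). *Acacb* was 41.3 CPM in KO chow replicate 1, where the next mouse was at 68.2 CPM and the highest at 80.7 CPM (ratio 0.684). *Scd1* was 10415 CPM in KO HF/HS replicate 5, where the next mouse was at 5277 CPM and the lowest at 1781 CPM (ratio 0.595). *Pnpla3* was 1.67 CPM in control HF/HS replicate 2, where the next mouse was at 0.810 CPM and the lowest at 0.261 CPM (ratio 0.611). No cause of these values was tested.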

How the results depend on the processing

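Over the 10 genes in 6 comparisons, 1416 alternative values were computed, of which 1305 kept direction and side of the threshold, 93 turned direction, 17 newly passed and 1 no longer passed (*Acacb* in controls in the fit of all 27 mice, adjusted p = 0.0786). DESeq2 called 2 of the 10 genes for diet in controls and 1 in KO mice, with 1401 genes called in KO mice, 13 between genotypes on chow and 55 on HF/HS. In controls it called 6 ChREBP targets higher and 2 lower (4 and 1 with edgeR) and 5 genes of feeding and insulin higher and 1 lower (2 and 1), and in KO mice 3 glycerolipid genes lower (1). The fit of all 27 mice called 0 of the 10 in controls, 1 in KO mice, and 1 gene between genotypes on HF/HS. Upper-quartile normalization moved *Elovl6* between genotypes on chow to 8.63e-05 and the interaction of *Acly* to 0.0051, both close to 0 as before.
Deviations of same-numbered mice had r from -0.27 to 0.30 over the 4 comparisons, above 0.1 in 1 of 7, 4 of 6, 1 of 6 and 3 of 7 pairs. Differently numbered mice were not compared in this way, so these values cannot decide whether the numbers pair mice. With a replicate block, 774 genes were called for diet in controls, and the log2 fold change turned to 0.020 for *Fasn* and 0.047 for *Thrsp* (diet in KO mice), to -0.019 for *Acly*, -0.074 for *Fasn* and -0.0085 for *Thrsp* (genotype on chow), and to 0.036 for *Acly* and 0.013 for *Fasn* (interaction).
With 1 mouse left out, 1 to 2 of the 10 genes were called for diet in controls, 0 to 1 in KO mice and 2 to 4 over both genotypes, the added comparison. The genes called were 467 (KO chow replicate 2 dropped) to 950 (KO HF/HS replicate 5 dropped) for diet in KO mice, 2 to 11 for genotype on HF/HS (11 when KO HF/HS replicate 5 was dropped), and 136 (KO HF/HS replicate 2 dropped) to 500 for the *Srebf1* slope. The log2 fold changes whose direction turned were those of results that had not passed. For diet, *Srebf1* ran from -0.011 to 0.24 and *Fasn* from -0.19 to 0.060 in controls, *Fasn* from -0.27 to 0.22 and *Thrsp* from -0.22 to 0.085 in KO mice, and *Srebf1* from -0.13 to 0.00492 and *Fasn* from -0.16 to 0.11 over both genotypes. For genotype on chow, *Acly* ran from -0.084 to 0.094, *Acaca* from -0.20 to 0.019, *Fasn* from -0.21 to 0.28, *Elovl6* from -0.14 to 0.094, *Thrsp* from -0.021 to 0.29 and *Pnpla3* from -0.56 to 0.078. For genotype on HF/HS, *Srebf1* ran from -0.19 to 0.065, *Acly* from -0.056 to 0.12, *Acacb* from -0.013 to 0.17, *Fasn* from -0.072 to 0.21, *Elovl6* from -0.046 to 0.076, *Scd1* from -0.60 to 0.040 and *Pnpla3* from -0.13 to 0.48. For the interaction, *Acly* ran from -0.084 to 0.12, *Fasn* from -0.26 to 0.24, *Elovl6* from -0.078 to 0.16, *Scd1* from -0.091 to 0.53 and *Pnpla3* from -0.059 to 0.62. The cause of these changes was not tested beyond the dropped mouse or setting. *Thrsp* kept its sign but ran from 0.21 to 0.60 for diet in controls and from -0.53 to -0.15 for genotype on HF/HS, and *Pnpla3* from 0.15 to 0.76 for diet in controls. Low counts limit *Pnpla3*, and the spread between mice limits *Scd1* and *Thrsp*.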
